A study of Mus musculus with 18 samples.

Results

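Histamine is made, packed and destroyed by a short chain of proteins, and 3 genes of that chain are described here: Hdc, which encodes histidine decarboxylase, the enzyme that forms histamine from histidine; Slc18a2, which encodes the vesicular monoamine transporter that loads histamine into granules; and Hnmt, which encodes histamine N-methyltransferase, the enzyme that inactivates histamine inside cells. They were found by gene symbol in a table of 56413 genes, where each of the 3 has 1 row, and all 3 passed the filter on low counts that left 14076 genes for testing. The cells were mouse basophils grown from bone marrow with interleukin-3 at 0.3 ng/mL for 7 days, given TNP-specific IgE (1 µg/mL) on day 6, and then sorted with magnets for CD49b, a surface protein of basophils. They came from mice labelled TTP-KO, lacking tristetraprolin, the RNA-decay protein encoded by Zfp36, or from wild-type (WT) mice. Bulk polyadenylated RNA of 50000 cells a sample was sequenced from 3 libraries in each of 6 groups, 18 libraries in all: TTP-KO and WT cells given plain ovalbumin for 2 h (control), TNP-ovalbumin for 2 h, or TNP-ovalbumin for 4 h, always at 10 ng/mL. All groups thus carried the same IgE, and the 4 h groups have no control of their own duration. The knockout allele, and the age and sex of the mice, are not given in the sources used here, nor is it said whether the libraries of a group are separate animals or cultures. The p-values below thus weigh differences against the spread among libraries of a group, and that spread may be purely technical.

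Basophils and mast cells are the main stores of histamine outside the stomach and the brain. Histidine decarboxylase needs pyridoxal phosphate and acts in the cytosol. The vesicular transporter then exchanges histamine for protons that a proton pump drives into the granule, where histamine binds the sulphated chains of the proteoglycan serglycin. When antigen links the IgE on the surface, the granule contents are released within minutes, and new histamine must be made to refill the store. Histamine that returns to the cytosol can be methylated by Hnmt, which takes the methyl group from S-adenosylmethionine, whereas histamine outside cells is oxidised by diamine oxidase, encoded by Aoc1.

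The stretches before the starts of Hdc and Slc18a2 are shown because both genes rose with antigen. Each runs from 250 bases before the start to 10 after it, 260 bases in all, from RefSeq's promoter table (GRCm38.p6; the deposited counts used GRCm39). Capitals mark matches to the motifs searched on both strands. Hdc lies on the minus strand at chr2:126618669-126618928 and Slc18a2 on the plus strand at chr19:59260628-59260887.
Hdc: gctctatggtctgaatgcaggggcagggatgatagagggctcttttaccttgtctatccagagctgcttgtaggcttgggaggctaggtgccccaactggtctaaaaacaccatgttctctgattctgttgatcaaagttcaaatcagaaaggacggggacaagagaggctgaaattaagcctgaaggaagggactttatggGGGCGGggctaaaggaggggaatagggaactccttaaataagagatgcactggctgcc
Slc18a2: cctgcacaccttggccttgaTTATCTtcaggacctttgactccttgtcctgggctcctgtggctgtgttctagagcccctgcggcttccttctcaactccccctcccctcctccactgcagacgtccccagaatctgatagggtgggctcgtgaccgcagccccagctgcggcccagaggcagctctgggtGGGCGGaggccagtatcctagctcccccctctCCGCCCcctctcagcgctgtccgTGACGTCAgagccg

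The Hdc stretch held 1 GC box (GGGCGG), which began 48 bases before the start. The Slc18a2 stretch held 2 GC boxes, which began 59 and 27 bases before the start, the second of them on the opposite strand, and 1 GATA site (AGATAA, printed as TTATCT) 230 bases before it. It also held a cyclic AMP response element (TGACGTCA) that spans the start, with 4 bases before it and 4 past it. Of 32851 mouse promoters of the same length, 33.4% held GGGCGG, 10.3% AGATAA and 1.67% TGACGTCA. The other motifs searched, the TATA box TATAAA (12.7% of promoters), the AP-1 site TGANTCA (7.03%), the E-box CACGTG (6.34%) and the NFAT core GGAAA (56.9%), had no match in Hdc or Slc18a2. Hnmt, whose stretch is not printed, matched none of the 7. Base composition differed between the 3 stretches, with 49.6% G and C in Hdc, 64.2% in Slc18a2 and 38.1% in Hnmt, against a median of 52.3% over all promoters.

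Because tristetraprolin binds AU-rich elements in 3′ untranslated regions, those of the 3 transcripts were read for its core sequences in the GENCODE M21 transcripts (GRCm38). The 294 bases of Hdc held no ATTTA, a pentamer found in 36.2% of 1606 untranslated regions of similar length. Slc18a2 held 4 ATTTA in 2096 bases, and 1 of them lay in the heptamer TATTTAT that tristetraprolin prefers, 510 bases after the stop codon. That heptamer occurred in 41.7% of 2801 regions of similar length. It is shown with 10 bases on either side because it is the only such heptamer in the 3 genes.
Slc18a2 site: aataccaatgTATTTATgagttaaaag
Hnmt held 4 ATTTA in 683 bases and no heptamer. For comparison, the 774 bases of Zfp36 itself held 3 heptamers. The nonamer TTATTTATT was also searched, with no match in Hdc, Slc18a2 or Hnmt and 1 in Zfp36. It occurred in 1.81%, 11.1%, 3.82% and 4.02% of regions of similar length to theirs, in that order. These are matches of letters, and binding was not measured.

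Levels below are counts scaled to a library of 1000000 (CPM) on library sizes scaled by edgeR's TMM method, which sets the typical gene equal between libraries. Fold changes are log2 values with their standard error (SE) from edgeR's quasi-likelihood test on all 18 libraries, called at a Benjamini-Hochberg adjusted p under 0.05 over all genes tested. Library totals ran from 5516580 to 12733172 estimated counts. Antigen shifted the composition of the libraries: the TMM factors lay between 0.872 and 0.896 in the 2 h antigen groups and between 1.09 and 1.13 in the control groups. With library totals alone, the median gene was lower at 2 h of antigen than in control by 0.37 in TTP-KO and also by 0.37 in WT on the log2 scale, against shifts of -0.03 and -0.05 with TMM. At 2 h of antigen over control, 2510 genes were called higher and 2342 lower in TTP-KO cells with TMM, and 1218 higher and 6458 lower with totals alone. The split in WT cells was 2512 higher and 2432 lower with TMM and 1281 and 6415 with totals alone. Between genotypes the splits were 58 higher and 174 lower with TMM and 100 and 125 with totals in control, 128 and 265 against 147 and 194 at 2 h of antigen, and 257 and 478 against 302 and 382 at 4 h. At 4 h of antigen over control the splits were 2577 and 2355 with TMM and 1635 and 3559 with totals alone in TTP-KO, and 2758 and 2592 against 1879 and 3718 in WT. From 2 h to 4 h they were 2050 and 2284 against 4636 and 1237 in TTP-KO, and 2140 and 2242 against 4614 and 1191 in WT. Responses to antigen are therefore relative to the typical gene of each library, and the value with library totals alone is given wherever it changes a call, a direction or a statement.

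Zfp36 RNA did not separate the libraries labelled TTP-KO from the WT ones in the way a loss of the transcript would. It averaged 224 ± 4.42 CPM in TTP-KO and 237 ± 11.4 CPM in WT control cells (SD, n = 3 each), 564 ± 9.92 against 448 ± 10.6 CPM at 2 h, and 324 ± 23.9 against 295 ± 22.7 CPM at 4 h. It was higher in TTP-KO at 2 h by 0.33 ± 0.05 (edgeR adjusted p = 0.000316). The counts cover the whole gene and the deleted part is not known here, so they check neither the allele nor the labels, and every genotype difference below rests on the labels.

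The cells carried the markers of basophils. The 10 basophil markers, among them the granule protease Mcpt8 and the IgE receptor chain Fcer1a, summed to between 20284 and 27194 CPM in every library. Mast cells, which also make histamine, were represented by 8 markers summing to 864 to 1475 CPM, most of it from Cpa3, a protease shared with basophils. The mast cell receptor gene Mrgprb1 was at 0 counts in all 18 libraries, and Mrgprb2 and the protease gene Mcpt4 stayed below 1 CPM on average in each group. Other mast cell markers were present: Tpsb2 averaged 111 CPM, Cma1 32.1 CPM and Kit 18.7 CPM over the 18 libraries. Tpsb2 was called lower in TTP-KO in control (-0.86), at 2 h (-0.52) and at 4 h (-0.81). So was Cma1 (-0.62, -0.87 and -0.73), while Cpa3, Kit and Tpsab1 were not called between genotypes. The summed mast cell markers were lower in TTP-KO than in WT libraries in control (1319 to 1338 against 1439 to 1475 CPM) and at 4 h (864 to 897 against 1003 to 1047 CPM), and overlapped at 2 h (1290 to 1342 against 1319 to 1356 CPM). The sum of 10 monocyte and macrophage markers was higher in TTP-KO libraries in every condition. It ran from 8543 to 8753 against 7431 to 7552 CPM in control, 9015 to 9095 against 7176 to 7786 CPM at 2 h, and 7705 to 8323 against 6382 to 6622 CPM at 4 h. Most of that sum was Lyz2, which averaged 7044 CPM in TTP-KO and 5929 CPM in WT control cells. Not all of the 10 were called higher, and their calls are given with Hnmt below. Summed neutrophil markers were also higher in TTP-KO libraries, with medians of 2145 against 1570.3 CPM in control, 2282 against 1553 CPM at 2 h and 1971 against 1179 CPM at 4 h. Mpo, Ltf, Ngp and Camp were called higher in TTP-KO in each condition, and S100a8 and S100a9 at 2 h and 4 h. Elane, Retnlg and Mmp8 were not called between genotypes, and Cxcr2 was called lower at 4 h (-0.34, edgeR adjusted p = 7.94e-06). T and B cell markers, 9 genes of which 5 were tested, were lower in TTP-KO libraries, summing to 44.5 to 55.9 against 79.7 to 88.4 CPM in control, 45.1 to 60.4 against 74.3 to 90.5 CPM at 2 h and 35.3 to 44.0 against 65.1 to 80.9 CPM at 4 h. In each condition 4 of these 5 were called lower in TTP-KO. Of all genes tested, 1.65% were called in either direction in control, 2.79% at 2 h and 5.22% at 4 h. Erythroid markers, 6 genes, were also lower in TTP-KO libraries, at 24.6 to 31.0 against 37.8 to 58.7 CPM in control, 26.8 to 37.9 against 50.9 to 52.0 CPM at 2 h, and 22.3 to 25.2 against 34.1 to 39.9 CPM at 4 h. Platelet and megakaryocyte markers, 6 genes, overlapped between genotypes in each condition. In TTP-KO against WT libraries they summed to 1248 to 1619 against 1405 to 1746 CPM in control. The ranges were 1388 to 1517 against 1403 to 1599 CPM at 2 h, and 1230 to 1388 against 1325 to 1388 CPM at 4 h. In bulk RNA, fewer cells of a type and less RNA per cell cannot be told apart.

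Hdc was a highly expressed gene that rose steeply with antigen and had fallen part of the way back by 4 h, in both genotypes. In control cells the 3 TTP-KO libraries had 1759.8, 1836 and 1809 CPM and the 3 WT libraries 1979, 2010.4 and 2138 CPM. After 2 h of antigen TTP-KO libraries had 5944, 6338 and 6311 CPM and WT libraries 6872, 6628 and 6628 CPM. After 4 h TTP-KO libraries had 3749, 3756 and 3685 CPM and WT libraries 3949.9, 4076 and 4439.6 CPM. Every library at 2 h lay above every library at 4 h, every library at 4 h lay above every control library, and in each condition all 3 TTP-KO libraries lay below all 3 WT libraries. As a share of all counts, this 1 transcript took 0.551% in TTP-KO and 0.588% in WT cells at 2 h of antigen, against 0.202% and 0.224% in control.

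**Figure D1:**
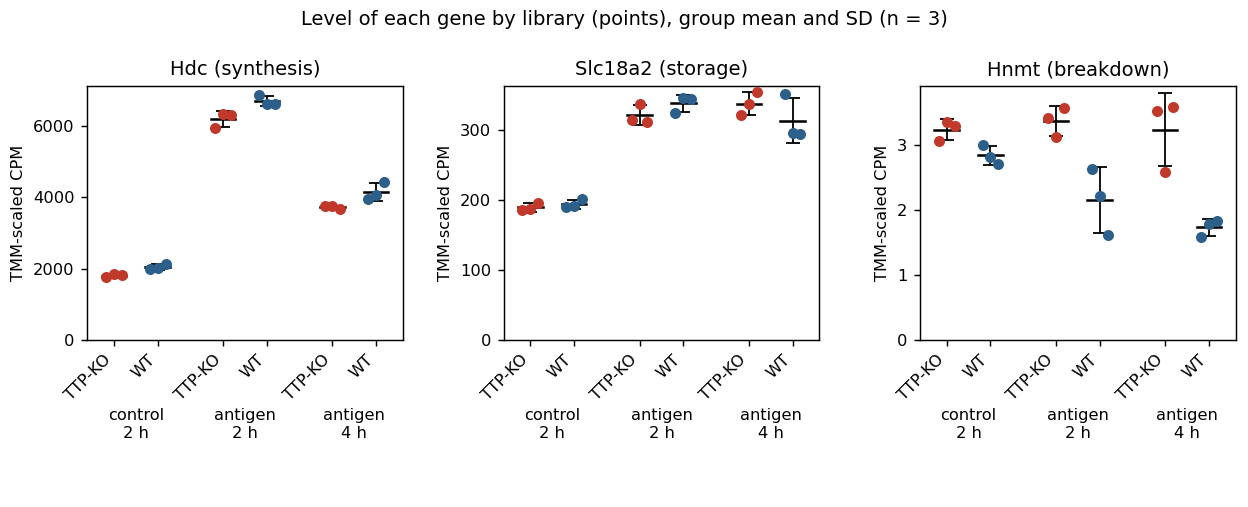
TMM-scaled CPM of Hdc, Slc18a2 and Hnmt in each of the 18 libraries (points), by genotype and condition, with the group mean and SD (n = 3). Hdc peaks at 2 h with TTP-KO below WT in each condition, Slc18a2 stays high from 2 h to 4 h, and Hnmt is near 3 CPM except in WT cells given antigen.

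Antigen for 2 h raised Hdc 3.44-fold in TTP-KO cells, a log2 change of 1.78 ± 0.04 (SE; edgeR adjusted p = 5.53e-24), and 3.28-fold in WT cells, a log2 change of 1.72 ± 0.04 (edgeR adjusted p = 9.58e-24). At 4 h Hdc was still above control by 1.05 ± 0.04 in TTP-KO (edgeR adjusted p = 2.29e-18) and by 1.02 ± 0.04 in WT (edgeR adjusted p = 2.70e-18). Between 2 h and 4 h of antigen it fell by 0.73 on the log2 scale in TTP-KO (edgeR adjusted p = 5.33e-15) and by 0.69 in WT (edgeR adjusted p = 1.90e-14). With library totals alone the rise at 2 h was 1.45 in TTP-KO and 1.39 in WT, and the fall from 2 h to 4 h was -0.53 in TTP-KO and -0.49 in WT, all called. All antigen libraries above all control libraries, as for Hdc and Slc18a2, held for 22.0% of genes in TTP-KO and 21.2% in WT at 2 h, and for 24.8% and 25.1% at 4 h. Such a course, called higher at both times and lower at 4 h than at 2 h in both genotypes, was shared by 3.23% of the genes tested.

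Hdc was lower in TTP-KO than in WT cells in each condition, and the difference was called in control, where TTP-KO had 0.882 of the WT level, and at 4 h, where it had 0.898. In control cells TTP-KO averaged 1802 ± 38.7 CPM and WT 2042 ± 84.2 CPM (SD, n = 3 each), a log2 difference of -0.18 ± 0.04 with a 95% interval of -0.26 to -0.10 (edgeR adjusted p = 0.00818). At 4 h TTP-KO averaged 3729.9 ± 39.4 CPM and WT 4155 ± 254 CPM, a difference of -0.16 ± 0.04 with an interval of -0.23 to -0.08 (edgeR adjusted p = 0.0109). At 2 h the means were 6198 ± 220.3 CPM in TTP-KO and 6709 ± 141 CPM in WT, and the difference of -0.11 ± 0.04, with an interval of -0.19 to -0.04, was not called (edgeR adjusted p = 0.109). Hdc was the 1 member called between genotypes, where called genes in either direction made up 1.65% of those tested in control, 2.79% at 2 h and 5.22% at 4 h. All TTP-KO libraries lay below all WT libraries for 9.04% of genes in control, 10.3% at 2 h and 12.8% at 4 h, in all 3 conditions together for 1.68%, and calls lower in both control and 4 h for 0.639%.

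Both calls between genotypes rested on narrow margins. The control call was lost without the third WT library (-0.15, edgeR adjusted p = 0.0688) or without the first TTP-KO library (-0.16, edgeR adjusted p = 0.0565). The call at 4 h was lost without the third WT library (-0.11, edgeR adjusted p = 0.133) or without the third TTP-KO library (-0.15, edgeR adjusted p = 0.0592). In every such fit TTP-KO remained the lower group. Hdc relative to the basophil protease Mcpt8 in the same library, a measure chosen after the values were seen, was 350 ± 3.08 per 1000 Mcpt8 counts in TTP-KO and 381 ± 22.6 in WT control cells, 896 ± 61.0 against 964 ± 27.3 at 2 h, and 622 ± 28.5 against 606 ± 15.1 at 4 h (SD, n = 3 each). The libraries did not overlap in control, lay next to each other at 2 h (highest TTP-KO library 933.5, lowest WT library 933.8) and overlapped at 4 h, where Mcpt8 itself was lower in TTP-KO, with a log2 difference of -0.19 ± 0.05 (edgeR adjusted p = 0.0289). Mcpt8 is 1 of 10 basophil markers, and the ratio depends on that choice. Between genotypes 1 of the 10 was called higher in TTP-KO and 2 lower in control, 1 higher and 1 lower at 2 h, and 1 higher and 4 lower at 4 h. In control Prss34, the marker with the most counts, was higher in TTP-KO by 0.17 ± 0.03 (edgeR adjusted p = 0.000625), whereas Cyp11a1 differed by -0.22 (edgeR adjusted p = 0.000654). The ratio to another basophil marker was not computed. The part of the marker sums of other cell types, lower in TTP-KO libraries for mast, T and B, and erythroid cells and higher for macrophages and neutrophils, in the Hdc difference was not tested.

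The response of Hdc to antigen did not differ detectably between genotypes. The interaction, the TTP-KO response minus the WT response, was 0.07 at 2 h with a 95% interval of -0.04 to 0.18 (edgeR adjusted p = 0.868). At 4 h it was 0.03 with an interval of -0.08 to 0.14 (edgeR adjusted p = 0.929), and for the change between 2 h and 4 h -0.04 with an interval of -0.15 to 0.07 (edgeR adjusted p = 0.879). Interactions called over all genes made up 0.0497% at 2 h, 0.689% at 4 h and 0.313% for the change between the times.

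**Figure D2:**
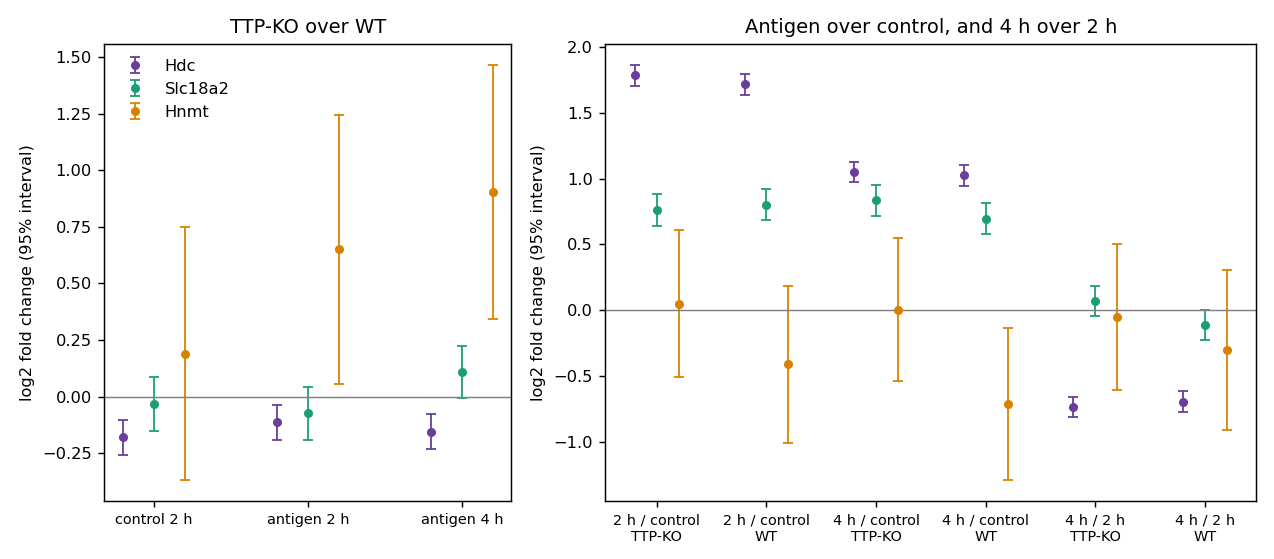
Log2 fold changes of the 3 genes with 95% intervals, left for TTP-KO over WT in each condition, right for antigen over control and 4 h over 2 h within each genotype. Hdc shows small negative genotype differences and large responses to antigen, Slc18a2 responses between 0.69 and 0.83 over control, and Hnmt wide intervals.

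Slc18a2, the granule transporter, rose with antigen as well, less than Hdc, and had no called change between 2 h and 4 h. In control cells it had 185, 186 and 196 CPM in TTP-KO libraries and 189, 191 and 201 CPM in WT libraries. After 2 h of antigen it had 313, 337 and 311 CPM in TTP-KO and 324, 345 and 344 CPM in WT. After 4 h it had 321, 337 and 353 CPM in TTP-KO and 351, 295 and 293 CPM in WT. All 12 antigen libraries lay above all 6 control libraries, the 2 antigen times overlapped within each genotype, and the genotypes overlapped in every condition. The first WT library at 4 h stood above the other WT libraries of that group.

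Slc18a2 rose at 2 h 1.70-fold in TTP-KO, a log2 change of 0.76 ± 0.06 (edgeR adjusted p = 8.81e-12), and 1.74-fold in WT, a log2 change of 0.80 ± 0.06 (edgeR adjusted p = 2.72e-12). At 4 h it was above control by 0.83 ± 0.06 in TTP-KO (edgeR adjusted p = 1.69e-12) and by 0.69 ± 0.06 in WT (edgeR adjusted p = 6.82e-11). Of the members, 2 were called at 2 h in each genotype, and at 4 h 2 in TTP-KO and 3 in WT, Hnmt being the third with a fall. Genes called higher or lower than control made up 34.5% in TTP-KO and 35.1% in WT at 2 h, and 35.0% in TTP-KO and 38.0% in WT at 4 h. Being called higher at both times in both genotypes, as Hdc and Slc18a2 were, held for 8.18% of the genes tested. The rises depended on the scaling in size: with library totals alone they were 0.43 in TTP-KO and 0.48 in WT at 2 h, and 0.70 in TTP-KO and 0.57 in WT at 4 h, all called.

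In WT the change of Slc18a2 from 2 h to 4 h took its direction from the scaling. In TTP-KO the change was positive with TMM and with library totals alone, and was called only with the latter. With TMM the change was 0.07 ± 0.06 in TTP-KO (edgeR adjusted p = 0.368) and -0.11 ± 0.06 in WT (edgeR adjusted p = 0.150), against called shares of 30.8% and 31.1% of genes. With library totals alone it was 0.27 in TTP-KO (edgeR adjusted p = 0.000429) and 0.09 in WT (edgeR adjusted p = 0.215), where the median gene moved by 0.23 in TTP-KO and 0.22 in WT. Without the first WT library at 4 h, the WT change was -0.20 and called (edgeR adjusted p = 0.00610), and that library alone decided the call. In shares of all counts Slc18a2 took 0.0345% in TTP-KO and 0.0315% in WT at 4 h, and 0.0285% and 0.0296% at 2 h.

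No difference of Slc18a2 between genotypes was called. TTP-KO over WT was -0.03 in control with a 95% interval of -0.15 to 0.09 (edgeR adjusted p = 0.879), -0.07 at 2 h with an interval of -0.19 to 0.04 (edgeR adjusted p = 0.605), and 0.11 at 4 h with an interval of -0.01 to 0.22 (edgeR adjusted p = 0.341). Without the first WT library at 4 h, the difference at 4 h was 0.20 and was called (edgeR adjusted p = 0.0279). The interactions were -0.04 at 2 h (interval -0.21 to 0.13, edgeR adjusted p = 0.959), 0.14 at 4 h (interval -0.02 to 0.31, edgeR adjusted p = 0.567) and 0.18 for the change between the times (interval 0.02 to 0.34, edgeR adjusted p = 0.482). An antisense gene, Gm29261, overlaps Slc18a2 and had at most 2.52 estimated counts in any library, against 1147 or more for Slc18a2.

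The different courses of the 2 genes shifted the ratio of transporter to enzyme transcripts. Counts of Slc18a2 per 1000 counts of Hdc, a within-library ratio that no scaling touches and that was chosen after the values were seen, were 105 ± 3.47 in TTP-KO and 94.7 ± 0.774 in WT control cells (SD, n = 3 each). At 2 h they were 51.7 ± 2.08 in TTP-KO and 50.3 ± 2.81 in WT, and at 4 h 90.4 ± 5.23 in TTP-KO and 75.7 ± 11.7 in WT. Every control library and every 4 h library lay above every 2 h library. TTP-KO libraries lay above WT libraries in control (101 to 108 against 93.9 to 95.5), and the genotypes overlapped at 2 h and at 4 h. The ratio compares counts, not molecules, since the transcripts differ in length.

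**Figure D3:**
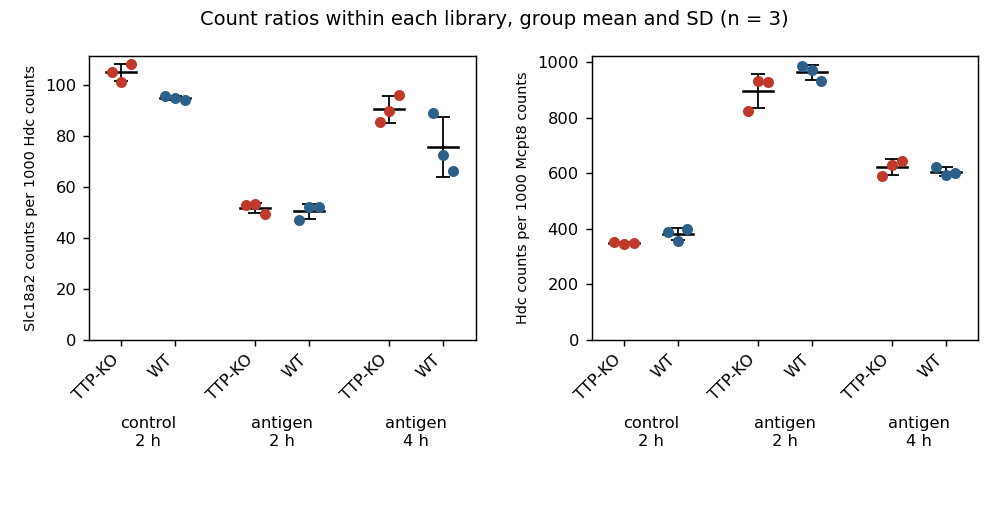
Counts of Slc18a2 per 1000 Hdc counts (left) and of Hdc per 1000 Mcpt8 counts (right) in each library (points), with the group mean and SD (n = 3), by genotype and condition. The left ratio is lowest at 2 h, near 51 in both genotypes, while the right ratio is highest there and overlaps between genotypes at 4 h.

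Hnmt, the degrading enzyme, was close to the lower limit of what these libraries measure, with 12 to 41 counts a library. In control cells it had 3.07, 3.36 and 3.30 CPM in TTP-KO libraries and 3.01, 2.82 and 2.72 CPM in WT libraries. After 2 h of antigen it had 3.42, 3.12 and 3.58 CPM in TTP-KO and 2.64, 2.21 and 1.62 CPM in WT. After 4 h it had 3.54, 2.60 and 3.59 CPM in TTP-KO and 1.59, 1.79 and 1.83 CPM in WT. All 3 TTP-KO libraries lay above all 3 WT libraries in each condition, which held for 8.42% of genes in control, 8.26% at 2 h, 12.2% at 4 h and 0.789% in all 3 conditions. Within WT, all antigen libraries lay below all control libraries, as for 22.2% of genes at 2 h and 24.0% at 4 h, whereas the TTP-KO groups overlapped.

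TTP-KO over WT was 0.19 ± 0.27 in control (edgeR adjusted p = 0.851) and 0.65 ± 0.29 at 2 h (edgeR adjusted p = 0.281). At 4 h it was 0.90 ± 0.27 with a 95% interval of 0.34 to 1.47, just short of the threshold (edgeR adjusted p = 0.0511). It was called with library totals alone (0.93, edgeR adjusted p = 0.0474) and without the second TTP-KO library (1.03, edgeR adjusted p = 0.0465). Over the fits that left out 1 library the adjusted p ran from 0.0465 to 0.174. In WT cells Hnmt was lower than control at 4 h, with a log2 change of -0.71 ± 0.28 (edgeR adjusted p = 0.0470), a call lost in each of the 6 fits that left out 1 library of those groups, with values from -0.75 to -0.65 and adjusted p from 0.0749 to 0.123. At 2 h the WT change was -0.41 ± 0.29 (edgeR adjusted p = 0.304), and it was -0.73 and called with library totals alone (edgeR adjusted p = 0.0350). The TTP-KO changes were 0.05 ± 0.27 at 2 h (edgeR adjusted p = 0.910) and 0.01 ± 0.26 at 4 h (edgeR adjusted p = 0.992), and both turned negative with library totals alone. Between 2 h and 4 h Hnmt changed by -0.05 ± 0.27 in TTP-KO (edgeR adjusted p = 0.949) and by -0.30 ± 0.29 in WT (edgeR adjusted p = 0.482). The interaction at 4 h was 0.71 with an interval of -0.08 to 1.51 (edgeR adjusted p = 0.536), so a different response of the genotypes was not detectable at this depth.

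Across the 18 libraries the genes whose log2 CPM followed Hnmt most closely, among 6652 genes of at least moderate level, were C1qb (Pearson r = 0.911), Pla2g7 (0.891), C1qc (0.880), Lgmn (0.849) and Lyz2 (0.827). C1qb and C1qc encode chains of complement C1q, Lgmn a lysosomal protease and Lyz2 lysozyme, all abundant in macrophages, and C1qb and Lyz2 belong to the macrophage marker list. Lyz2 averaged 7044 ± 139.6 CPM in TTP-KO and 5929 ± 86.3 CPM in WT control cells, 7284 ± 24.9 against 5823 ± 287 CPM at 2 h, and 6346 ± 289.8 against 5023 ± 144 CPM at 4 h. Counts of Hnmt per 100000 counts of the 10 macrophage markers, a ratio chosen after the values were seen, were 37.4 ± 2.05 in TTP-KO and 38.0 ± 2.28 in WT control cells. They were 37.3 ± 2.40 against 28.9 ± 5.81 at 2 h and 40.2 ± 7.76 against 26.6 ± 2.38 at 4 h (SD, n = 3 each). The genotypes overlapped in control and not at either antigen time, where the TTP-KO ranges of 34.6 to 39.3 and 31.6 to 46.6 lay above the WT ranges of 22.5 to 33.9 and 24.0 to 28.7. All 10 markers were tested and none was at 0 in any group. Lyz2 made up most of their counts, so the ratio is mainly one to Lyz2. Between genotypes 2 were called higher and 1 lower in control, 3 higher at 2 h and 4 higher at 4 h. The shares called over all genes tested were 1.65%, 2.79% and 5.22%. The part of the macrophage markers in the Hnmt values was not tested.

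**Figure D4:**
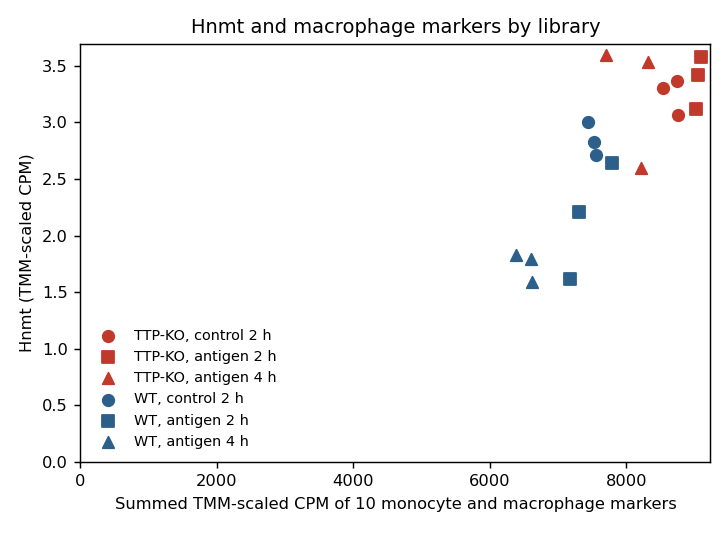
Hnmt (TMM-scaled CPM) against the summed TMM-scaled CPM of 10 monocyte and macrophage markers in each of the 18 libraries, coloured by genotype and shaped by condition. Most of each sum is Lyz2. Within each condition the TTP-KO libraries lie to the right of and above the WT libraries, and the WT libraries at 4 h of antigen have the lowest marker sums, with Hnmt at 1.59 to 1.83 CPM.

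The nearest genes to the other members were of a different kind. Hdc was followed most closely by Hilpda (Pearson r = 0.996), Lcp2 (0.996), Perp (0.995), Fmnl1 (0.995) and Neat1 (0.995). Hilpda encodes a lipid droplet protein induced by hypoxia, Lcp2 an adaptor of immune receptor signalling and Neat1 a nuclear long noncoding RNA. Hilpda averaged 128 CPM in TTP-KO and 158 CPM in WT cells at 2 h of antigen, against 23.8 CPM and 26.97 CPM in control. Slc18a2 was followed by Ucp2 (0.973), Picalm (0.971), Adam10 (0.970), Taf10 (0.969) and Cd9 (0.965). Ucp2 encodes a mitochondrial carrier, Picalm a clathrin adaptor, Adam10 a membrane protease and Cd9 a tetraspanin. Cd9 averaged 2508 CPM in TTP-KO and 2686 CPM in WT at 2 h of antigen, against 1228 CPM and 1320.4 CPM in control. Hdc and Slc18a2 correlated with each other at r = 0.894 over the 18 libraries, Hdc and Hnmt at -0.294, and Slc18a2 and Hnmt at -0.322. These values describe points that share the same 6 groups and scaling.

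Most of the genes for histamine receptors and for its other routes of breakdown and transport had few counts, Aldh2 being the exception. Of 14 such genes 7 were tested and 7 fell under the filter. Among the untested ones, Aoc1, encoding diamine oxidase, had 11 counts over all 18 libraries, the receptor genes Hrh1 and Hrh3 had 73 and 1, the transporter gene Slc29a4 had 28, the histidine ammonia-lyase gene Hal had 53, and the transporter gene Slc22a2 had 0. Hrh4, the histamine receptor typical of blood-forming and immune cells, fell with antigen: it averaged 4.99 ± 1.44 CPM in TTP-KO and 5.72 ± 1.02 CPM in WT cells at 2 h, and 5.77 ± 1.15 and 5.77 ± 0.356 CPM at 4 h, against 17.6 ± 1.63 and 16.2 ± 1.56 CPM in control. The log2 changes at 2 h were -1.80 ± 0.19 in TTP-KO (edgeR adjusted p = 6.64e-09) and -1.51 ± 0.19 in WT (edgeR adjusted p = 1.37e-07), and at 4 h -1.60 ± 0.18 and -1.49 ± 0.17. Hrh2 averaged 5.24 to 8.07 CPM in the 6 groups and with TMM was called only for a rise from 2 h to 4 h in TTP-KO of 0.59 ± 0.21 (edgeR adjusted p = 0.0338).

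Among the oxidising enzymes, Aldh2, the aldehyde dehydrogenase that completes the breakdown of methylated histamine, fell by 0.16 in TTP-KO and 0.16 in WT at 2 h and by 0.65 and 0.61 at 4 h (edgeR adjusted p = 3.44e-13 in TTP-KO and 1.40e-12 in WT at 4 h). It averaged 308 ± 6.09 CPM in TTP-KO and 326 ± 18.1 CPM in WT at 4 h of antigen, against 486 ± 17.3 and 496 ± 9.23 CPM in control. Maoa and Maob, the monoamine oxidases that act before it, averaged 2.04 to 4.12 CPM and 5.45 to 8.32 CPM and were not called in any comparison with TMM. Slc22a3, an organic cation transporter that can carry histamine across the cell membrane, averaged 19.7 to 26.6 CPM and rose at 4 h in TTP-KO by 0.29 ± 0.11 (edgeR adjusted p = 0.0331), a call that library totals alone did not give (0.16). Slc18a1, the related vesicular transporter of endocrine cells, averaged 1.51 to 2.77 CPM, with no call under TMM. None of the 7 tested genes was called between genotypes in control, at 2 h or at 4 h. The median change of the 7 genes at 2 h of antigen was -0.16 in TTP-KO and -0.08 in WT, against -0.03 and -0.05 over all genes.

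Genes that supply histidine and the cofactors were called with antigen in both directions, at 2 h about as often as genes in general. Of 15 genes 12 were tested, and 3 rose and 1 fell at 2 h in each genotype, while 5 rose and 3 fell at 4 h in TTP-KO and 4 rose and 3 fell in WT. Over all genes tested, 34.5% were called in TTP-KO and 35.1% in WT at 2 h, and 35.0% and 38.0% at 4 h. The list as a whole was not tested. Slc7a5, the large neutral amino acid transporter that also takes up histidine, rose by 1.52 ± 0.05 in TTP-KO (edgeR adjusted p = 1.14e-19) and 1.58 ± 0.05 in WT (edgeR adjusted p = 3.98e-20) at 2 h. Its partner chain Slc3a2 rose by 0.68 ± 0.04 in both. Slc43a2, another neutral amino acid transporter, rose by 0.23 ± 0.06 in TTP-KO and 0.21 ± 0.06 in WT, and these values turned to -0.11 and -0.12 with library totals alone. Mat2b, the regulatory subunit of the enzyme that makes S-adenosylmethionine, fell by 0.66 in TTP-KO and 0.58 in WT at 2 h, whereas the catalytic subunit Mat2a rose at 4 h by 0.50 ± 0.06 in TTP-KO and 0.56 ± 0.06 in WT. The median over the 12 genes at 2 h was -0.01 in TTP-KO and -0.04 in WT. With library totals alone 2 rose and 6 fell at 2 h in TTP-KO and 2 rose and 7 fell in WT.

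Between genotypes, Slc7a5 was lower in TTP-KO cells at both antigen times. It averaged 648 ± 27.4 CPM in TTP-KO and 752 ± 31.3 CPM in WT at 2 h, and 351 ± 18.6 against 448 ± 19.7 CPM at 4 h. The differences were -0.21 ± 0.05 at 2 h (edgeR adjusted p = 0.0140) and -0.35 ± 0.05 at 4 h (edgeR adjusted p = 2.28e-05). At 4 h 2 of the 12 genes were called higher in TTP-KO and 2 lower. Pdxk, the kinase that makes pyridoxal phosphate, was higher by 0.37 ± 0.08 and Slc43a2 by 0.26 ± 0.06. Slc7a5 and Slc7a8 (-0.18) were lower. None of the 12 was called in control. The shares of all genes tested that were called between genotypes were 1.65% in control, 2.79% at 2 h and 5.22% at 4 h.

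Among subunits of the proton pump that drives granule loading, most of those called at 2 h of antigen with TMM rose. Most of those called at 2 h with library totals alone fell, and these need not be the same genes. The shift of the median between the scalings was about as large as that of all genes. Of 22 genes 19 were tested. With TMM, 10 rose and 1 fell at 2 h in TTP-KO and 9 rose and 2 fell in WT, with medians of 0.25 in TTP-KO and 0.12 in WT. With library totals alone 2 rose and 8 fell in TTP-KO and 2 rose and 12 fell in WT, with medians of -0.09 and -0.20. The median over all genes was -0.03 in TTP-KO and -0.05 in WT with TMM, and -0.37 in each with totals alone. With TMM, 34.5% of all genes tested were called in TTP-KO and 35.1% in WT at 2 h, and 35.0% and 38.0% at 4 h. The pump list as a whole was not tested. Atp6v1h and Atp6ap2 rose under both, by 0.67 ± 0.06 and 0.65 ± 0.04 in TTP-KO and by 0.83 ± 0.06 and 0.64 ± 0.04 in WT with TMM. Tcirg1, a membrane subunit, fell under both, by 0.37 in TTP-KO and 0.22 in WT with TMM. At 4 h 10 rose and 2 fell in TTP-KO and 8 rose and 2 fell in WT with TMM, against 2 and 4 in TTP-KO and 4 and 5 in WT with totals alone. Between genotypes, 1.65% of all genes tested were called in control, 2.79% at 2 h and 5.22% at 4 h. No pump gene was called between genotypes in control. At 2 h Atp6v1a was higher in TTP-KO (0.24) and Atp6v0a1 lower (-0.21), and at 4 h Atp6v1a (0.28) and Atp6v0d2 (0.24) were higher and Atp6ap2 lower (-0.15), the last not called with totals alone (-0.13).

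The proteoglycan that binds histamine in the granule, and the enzymes that build and sulphate its chains, held genes called in both directions. All 22 genes were tested, and 4 rose and 6 fell at 2 h in each genotype, while 3 rose and 7 fell at 4 h in TTP-KO and 4 rose and 7 fell in WT. The shares called over all genes were 34.5% in TTP-KO and 35.1% in WT at 2 h and 35.0% and 38.0% at 4 h, and the list as a whole was not tested. Srgn, which encodes the serglycin core, averaged 6877 ± 82.9 CPM in TTP-KO and 7198 ± 106 CPM in WT at 2 h of antigen, against 2881 ± 47.6 and 3178 ± 53.2 CPM in control, rises of 1.26 ± 0.03 and 1.18 ± 0.03. Chst11, a chondroitin sulphotransferase, rose by 1.20 ± 0.07 in TTP-KO and 1.36 ± 0.07 in WT. Ndst2, the sulphotransferase needed for heparin in connective tissue mast cells, fell by 1.24 in TTP-KO and 1.16 in WT, and Chst12, another chondroitin sulphotransferase, fell by 1.09 and 0.98. The median over the 22 genes at 2 h was -0.18 in TTP-KO and -0.17 in WT, and with library totals alone 2 rose and 13 fell in TTP-KO and 3 rose and 12 fell in WT.

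Srgn was the gene of this list that had the same calls between genotypes as Hdc. It was lower in TTP-KO than in WT in control (log2 difference -0.14, edgeR adjusted p = 0.0037) and at 4 h (-0.20, edgeR adjusted p = 9.3e-06), and was not called at 2 h. Calls lower in both control and 4 h held for 0.639% of the genes tested. Genes called in either direction made up 1.65% in control, 2.79% at 2 h and 5.22% at 4 h. Chst15, which adds a further sulphate to chondroitin chains, was also lower in TTP-KO in control (-0.22, edgeR adjusted p = 0.029), a call that library totals alone did not give (-0.19, edgeR adjusted p = 0.077). No member of the list was called higher in TTP-KO in control, at 2 h or at 4 h.

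**Figure D5:**
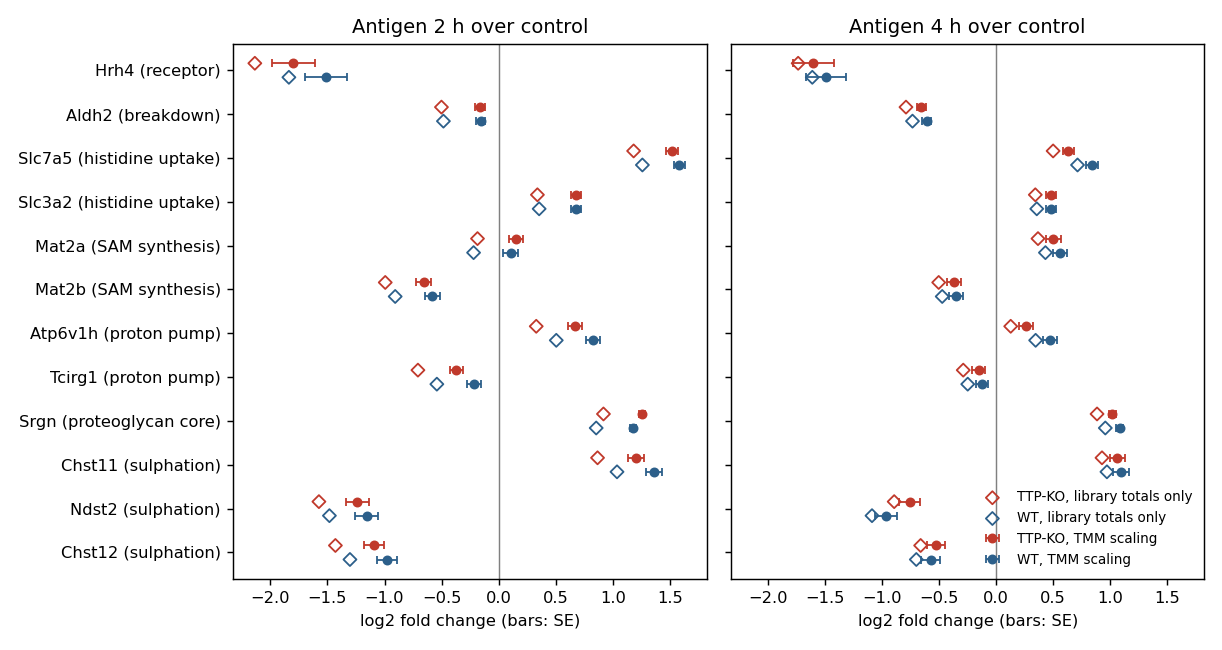
Log2 fold changes of antigen over control at 2 h (left) and 4 h (right) for 12 genes around histamine supply, storage and response, in TTP-KO and WT, with TMM scaling (filled points, bars are SE) and with library totals only (open diamonds). Slc7a5, Slc3a2, Srgn and Chst11 lie above 0 and Hrh4, Aldh2, Mat2b, Tcirg1, Ndst2 and Chst12 below 0 under both scalings.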

How the data were processed

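The authors deposited 1 table of estimated counts per gene for all 18 libraries. Per the submitters' processing notes, the genome build was GRCm39 and the tools were RSEM 1.3.1, STAR 2.7.10a, cutadapt 3.5 and R (4.4.0, 4.4.1), with no role or order given. The annotation release and the strand setting are not given in the sources used here. The table names its control columns unstimulated, and they were matched to the libraries labelled as control ovalbumin. The 18 pairs of replicates differed beyond sampling noise (chi-square per degree of freedom of 2.97 to 7.04), so none was counted as a copy.

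The estimated counts as deposited were rounded to whole numbers and tested with edgeR 4.0.16 in R 4.3.3: TMM scaling, filterByExpr on the 6 groups, and robust quasi-likelihood fits with 1 mean for each group and 12 residual degrees of freedom, for 12 comparisons. P-values were adjusted over 14076 genes by the Benjamini-Hochberg method with a threshold of 0.05. Intervals of fold changes are 95% intervals, and each SE was taken from the size of the change and its F statistic, as change over root F. With 3 libraries a group, an exact permutation test could not go below 0.1. On data simulated for TTP-KO over WT in control (13845 genes), 57 of 100 genes changed 1.5-fold and 88 of 100 changed 2-fold were recovered, with 7 other genes called.

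The members and gene lists were chosen with earlier results of these data known. Named genes are the members, Zfp36, up to 3 called genes of each list in each direction with the largest changes, the receptor and breakdown list (1 untested gene of it is not reported here), and the 5 genes most correlated with each member among genes whose log2 CPM averaged 4 or more. A few list genes outside that rule, and Mcpt8, Prss34, Cyp11a1 and Lyz2, were named after their values were seen. The alternatives were RLE scaling, no filter, a replicate block, DESeq2 1.42.0, fits on the compared groups only, leaving out each library, and, added after seeing the data, library totals without TMM.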

Additional observations from a re-analysis of the deposited data

Results flagged for a closer look

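The response of Zfp36, the gene named in the genotype label, differed between genotypes by a test of the interaction. Its rise at 2 h of antigen was 1.33 ± 0.05 in TTP-KO and 0.92 ± 0.05 in WT (log2, SE), a difference of 0.41 ± 0.08 (edgeR adjusted p = 0.0249).

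Slc7a8, a neutral amino acid transporter of the histidine supply list, differed between genotypes in its response at 4 h, again by the interaction test. It fell by 0.17 in TTP-KO and rose by 0.12 in WT, where library totals alone left it at -0.0024, a difference of -0.29 ± 0.06 (edgeR adjusted p = 0.0198). It averaged 338 ± 7.10 CPM in TTP-KO and 384 ± 19.2 CPM in WT at 4 h, and 379.9 ± 5.83 against 353 ± 20.1 CPM in control (SD, n = 3 each).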

How the results depend on the processing

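RLE scaling kept direction and call for all 36 results on the 3 genes and moved none of the 12 counts of called genes by over 1.5 times. Same-numbered libraries did not deviate together (45 pairs, r from -0.163 to 0.160, 5 of 18 libraries closest to their own number), so the numbers were not taken as pairs. With the replicate block, Hnmt at 4 h of antigen was -0.0023 in TTP-KO and -0.70 in WT (adjusted p = 0.0578), and the other 34 results and all 12 counts were unchanged in call. In WT at 4 h Hnmt was also not called without the filter (-0.69), with DESeq2 (-0.71) or on the compared groups alone (-0.72), and in TTP-KO it was -0.0099 on those groups and -0.13 with library totals alone. The compared groups alone called Hdc at 2 h between genotypes (-0.11, adjusted p = 0.0459). Library totals alone gave Hnmt 0.93 between genotypes at 4 h (called), -0.28 at 2 h in TTP-KO, -0.73 at 2 h in WT (called) and 0.15 from 2 h to 4 h in TTP-KO, and gave Slc18a2 from 2 h to 4 h as 0.27 in TTP-KO (called) and 0.093 in WT. DESeq2 gave no adjusted p for 5 Hnmt results.

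Leaving out 1 library gave, between genotypes, Hdc -0.20 to -0.15 in control and -0.19 to -0.11 at 4 h, and at 4 h Slc18a2 0.063 to 0.20 and Hnmt 0.83 to 1.03. It gave Hnmt at 4 h over control -0.069 to 0.13 in TTP-KO and -0.75 to -0.65 in WT, Hnmt from 2 h to 4 h -0.12 to 0.082 in TTP-KO, and Slc18a2 from 2 h to 4 h -0.20 to -0.063 in WT. The Hdc interaction ran from -0.010 to 0.075 at 4 h and from -0.077 to 0.0084 for the change between the times. Each of these fits had 1 library fewer, and the cause of the shifts was not tested.

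Genes called between genotypes in control numbered 232, against 399 without the filter, 149 on the compared groups and 145 to 190 leaving out 1 library. At 2 h they were 393, against 228 to 369 leaving out 1 library, and at 4 h 735, against 1130 on the compared groups and 466 to 551. Antigen at 2 h called 4852 genes in TTP-KO and 4944 in WT, against 7676 and 7696 with library totals alone. Interactions called were 7 at 2 h, against 55 without the filter, 22 with DESeq2, 11 on the compared groups and 4 to 8 leaving out 1 library. At 4 h they were 97, against 259, 176 with DESeq2 and 46 to 133, and between the times 44, against 134, 103 with DESeq2 and 25 to 53. Hnmt had 12 to 41 counts a library, which limits its precision.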

Other observations

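Among genes of other amine pathways, calls with antigen were made in both directions. Of 17 genes of serotonin, catecholamine, pterin and polyamine metabolism 12 were tested, and 3 rose and 4 fell at 2 h in each genotype, against 2 rising and 7 falling in TTP-KO and 2 and 8 in WT with library totals alone. Over all genes tested 34.5% were called at 2 h in TTP-KO and 35.1% in WT, and neither this list nor the transcription factors below were tested as a list. Gch1, the entry enzyme of tetrahydrobiopterin synthesis, averaged 688 ± 26.3 CPM in TTP-KO and 602 ± 26.9 CPM in WT at 2 h of antigen, against 91.7 ± 5.63 and 85.4 ± 6.29 CPM in control, and rose by 2.91 ± 0.06 in TTP-KO and 2.81 ± 0.06 in WT. Sat1, which acetylates polyamines for export, averaged 1025 CPM in TTP-KO and 1148 CPM in WT at 2 h, against 380.1 and 407 CPM in control, both rises called. Tph1, the first enzyme of serotonin synthesis, and Slc6a4, the serotonin transporter, fell at 2 h by 0.56 and 0.55 in TTP-KO and by 0.74 and 0.40 in WT. Both were lower in TTP-KO than in WT in control: Tph1 averaged 9.26 ± 2.10 CPM in TTP-KO and 15.0 ± 0.929 CPM in WT (-0.71 ± 0.15, edgeR adjusted p = 0.0103), and Slc6a4 differed by -0.23 ± 0.06 (edgeR adjusted p = 0.0443). At 4 h the differences were -0.89 ± 0.15 for Tph1 and -0.42 ± 0.06 for Slc6a4.

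Of 9 transcription factors of basophils and mast cells, 3 rose and 4 fell at 2 h in each genotype, against 1 and 6 with library totals alone. Tal1 rose by 1.07 ± 0.09 in TTP-KO and 0.80 ± 0.09 in WT. Runx1 rose by 0.34 ± 0.04 in TTP-KO and 0.38 ± 0.04 in WT, which library totals alone put near 0. Stat5b, which carries signals of interleukin-3, fell by 0.77 in TTP-KO and 0.87 in WT. Gata2 averaged 1328 CPM in TTP-KO and 1463 CPM in WT at 4 h and was lower in TTP-KO there, with a difference of -0.14 ± 0.04 (edgeR adjusted p = 0.0291).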
